A study of Mus musculus with 45 samples.

Results

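Islets of NZO/HlLtJ mice were compared with islets of C57BL/6J mice on the control diet, across all genes. NZO/HlLtJ is an inbred strain prone to obesity and diabetes, and C57BL/6J is a common reference strain. The comparison used the 15 of 45 samples of the series whose titles name either strain and the diet as 10% fat+fiber. They were 7 of NZO/HlLtJ (4 females and 3 males) and 8 of C57BL/6J (4 females and 4 males). All of these mice were wild type and untreated per the labels, ate the control diet from 6 weeks of age and were 15 weeks old at collection. Polyadenylated RNA was sequenced as paired reads of 150 bp. The labels give no number of animals per sample, and p-values therefore reflect only how these samples spread.

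Islets are clusters of endocrine cells in the pancreas. Beta cells take up glucose through the transporter encoded by Slc2a2 and release insulin, alpha cells release glucagon (Gcg), and delta cells release somatostatin (Sst). Beta cells make very large amounts of secreted protein, which loads the endoplasmic reticulum, and their insulin release depends on ATP made by mitochondria. Beta cells under long metabolic load are known to lose identity genes and to gain genes such as Aldh1a3, which encodes a retinaldehyde dehydrogenase.

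Total counts per library ran from 57203765 to 109950221. On the first principal component of the authors' log2 values, which held 61.1% of the variance of the 1000 most variable genes, the 2 strains did not overlap, and NZO/HlLtJ male 3 lay farthest out at 36.0. Acinar cells, the enzyme-making cells around islets, gave 8.23% ± 7.14 of counts (SD, n = 8) in C57BL/6J and 4.53% ± 2.40 (n = 7) in NZO/HlLtJ. The difference was smaller than the SD of C57BL/6J and larger than that of NZO/HlLtJ. It did not pass a test (exact permutation test, two-sided p = 0.211). C57BL/6J females 3 and 4 held the highest acinar shares, 12.7% and 23.7%. Endocrine markers were high in every library, with the summed level of the beta cell list between 89459 and 194469 CPM (counts scaled to a common library total).

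The strains differed at 7204 of 18805 tested genes (38.3%) at an adjusted p under 0.05, with 3774 higher in NZO/HlLtJ (20.1%) and 3430 lower (18.2%). Of these, 2187 differed at least 2-fold (11.6%). The libraries of the strains did not overlap at 2554 genes (13.6%). Fold changes below are log2 values of NZO/HlLtJ over C57BL/6J with their standard errors, and the median over all tested genes was -0.0078. The sample identifiers fall into 3 ranges of consecutive numbers, which were a term of the fit. The second range held no NZO/HlLtJ male and the third no NZO/HlLtJ female. A fit within the second therefore compared the strains in females alone, and one within the third in males alone. Fitted within each range alone, with 2 or 3 libraries of a strain, 37.5%, 12.8% and 50.5% of the 7204 genes were called again, from libraries that the full fit also held. In a fit by sex, 8.93% of genes were called higher and 8.68% lower in females, and 18.7% higher and 14.4% lower in males. The interaction of strain and sex passed at 1.69% of genes. Counts of list members below, over both sexes and by sex, are to be read beside these shares.

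Over both sexes the insulin genes did not pass the test, whereas glucagon and somatostatin were lower in NZO/HlLtJ. Ins1 ran from 24270.4 to 35176 CPM (median 31746) in C57BL/6J and from 28322 to 58769 CPM (median 41396) in NZO/HlLtJ. Its fold change was 0.41 ± 0.19, adjusted p = 0.11. Ins2 had a fold change of 0.26, adjusted p = 0.33, and Iapp, which encodes amyloid polypeptide co-released with insulin, one of 0.39, adjusted p = 0.093. When the fit also held an acinar score, Ins1 and Iapp passed (adjusted p = 0.024 and adjusted p = 0.035, edgeR). Gcg, at chr2:62474530-62483650 in GRCm38, ran from 20203 to 32451 CPM (median 27573) in C57BL/6J and from 6304 to 20970.4 CPM (median 17108) in NZO/HlLtJ. The strains overlapped, and the fold change was -1.01 ± 0.26, adjusted p = 0.0083. Sst ran from 2425 to 4127 CPM (median 3039.6) in C57BL/6J and from 1043 to 2561 CPM (median 2225) in NZO/HlLtJ, with a fold change of -0.77 ± 0.17, adjusted p = 0.0034. The 3 NZO/HlLtJ males held the 3 lowest values of both hormones. They also held the 3 highest of Ins1, from 42745 to 58769 CPM, and of Iapp, from 18359 to 30123 CPM. Ins2 ran from 75008 to 96627 CPM in NZO/HlLtJ males and from 62508 to 70566 CPM in C57BL/6J males. It ran from 58427 to 77028 CPM in NZO/HlLtJ females and from 47198 to 63828 CPM in C57BL/6J females. In a bulk sample, fewer cells of a type and less RNA per cell cannot be told apart.

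Of the 16 tested genes of the other islet endocrine list, 11 were lower and 2 were higher in NZO/HlLtJ, with a median of -0.60. By sex, 3 were lower in females (median -0.38) and 12 in males (median -1.13), and the interaction passed at 3, or at 0 without NZO/HlLtJ female 2 or C57BL/6J male 4. The female count was 5 without NZO/HlLtJ male 1 and 7 without NZO/HlLtJ male 3. The largest difference was in Ghrl, which encodes ghrelin and ran from 3.11 to 13.8 CPM (median 5.79) in C57BL/6J and from 0.0339 to 0.440 CPM (median 0.125) in NZO/HlLtJ without overlap. Its fold change was -5.02 ± 0.53, adjusted p = 6.8e-06. Hhex, a delta cell transcription factor, had a fold change of -0.57 ± 0.10, adjusted p = 6.4e-04, and Irx2, an alpha cell transcription factor, one of -1.11 ± 0.20, adjusted p = 6.9e-04. The 2 higher members were Gc, an alpha cell gene for a vitamin D binding protein (1.02 ± 0.17, adjusted p = 2.9e-04), and Etv1 (0.24 ± 0.07, adjusted p = 0.018). The count of lower genes ran from 10 to 12 when each library was left out in turn, and Etv1 did not pass without NZO/HlLtJ male 3.

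**Figure D1:**
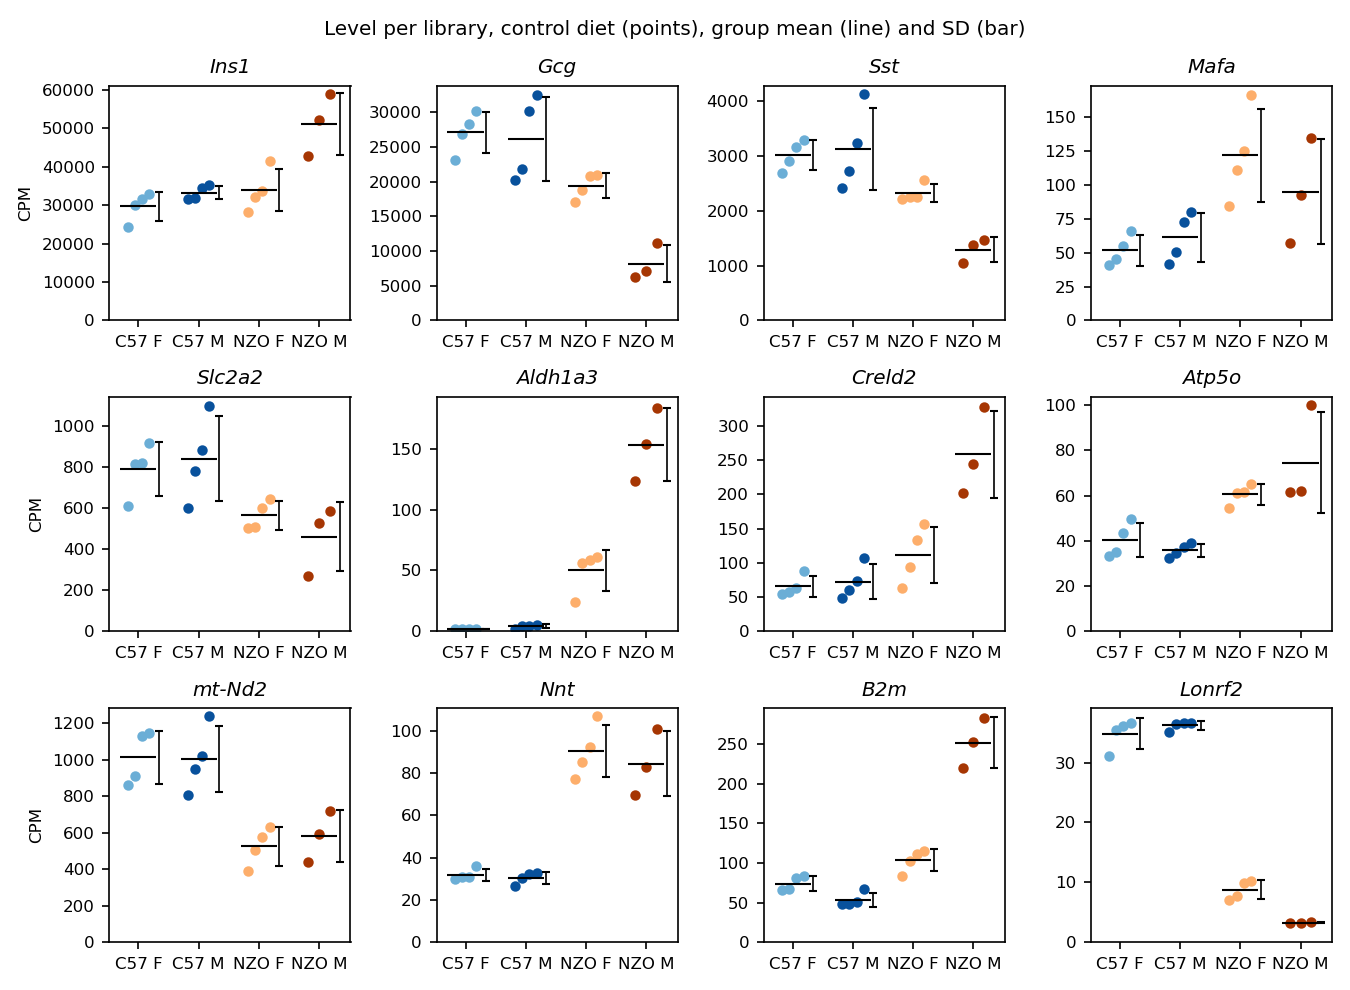
Level in CPM (linear axis from 0) of 12 genes in each of the 15 libraries, by strain and sex (C57 is C57BL/6J, NZO is NZO/HlLtJ, F female, M male), with the group mean as a line and the SD as a bar beside it. Gcg and Sst are lowest and Ins1 is highest in NZO/HlLtJ males, and Ins1 overlaps between strains. Aldh1a3, Atp5o and Nnt are higher in every NZO/HlLtJ library than in any C57BL/6J library.

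Beta cell identity genes moved in both directions. Of 28 tested, 10 were lower and 3 higher, with a median of -0.09. The lower genes included Isl1, a transcription factor of islet endocrine cells, which ran from 90.6 to 128 CPM (median 106) in C57BL/6J and from 43.1 to 66.8 CPM (median 61.5) in NZO/HlLtJ without overlap (-0.90 ± 0.10, adjusted p = 9.1e-06). Slc30a8, the zinc transporter of insulin granules, had a fold change of -0.79 ± 0.13, adjusted p = 3.4e-04, and Myt1, a zinc finger factor, one of -0.71 ± 0.12, adjusted p = 3.7e-04. The glucose transporter Slc2a2 ran from 603 to 1100.2 CPM (median 818) in C57BL/6J and from 271 to 644 CPM (median 526) in NZO/HlLtJ (-0.71 ± 0.14, adjusted p = 0.0016). Ucn3, which encodes urocortin 3 and marks mature beta cells, had a fold change of -0.41 ± 0.12, adjusted p = 0.014, and Trpm5, a cation channel, one of -1.01 ± 0.19, adjusted p = 7.9e-04. The 3 higher genes were the transcription factors Mafa (0.95 ± 0.20, adjusted p = 0.0019), Pdx1 (0.36 ± 0.12, adjusted p = 0.034) and Insm1 (0.26 ± 0.09, adjusted p = 0.028). Mafa ran from 40.7 to 80.2 CPM (median 53) in C57BL/6J and from 57.1 to 167 CPM (median 111) in NZO/HlLtJ. Leaving out single libraries ended some of these calls: the count was 1 without C57BL/6J female 2, without NZO/HlLtJ female 4 or without NZO/HlLtJ male 2, and Pdx1 did not pass in 9 of the 15 fits and Insm1 in 6. Within the first identifier range alone Pdx1 was at -0.07. The factor Nkx6-1 (0.03, adjusted p = 0.84) and the receptor gene Glp1r (-0.14, adjusted p = 0.38) did not pass, nor did Txnip, a glucose-induced gene (-0.04, adjusted p = 0.91), or the pancreatic polypeptide gene Ppy (-0.48, adjusted p = 0.27).

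Aldh1a3 was among the genes with the largest increase. At chr7:66390890-66427517 in GRCm38, it was 1.61, 2.24, 2.10 and 1.77 CPM in C57BL/6J females, 4.67, 1.65, 4.47 and 5.42 CPM in C57BL/6J males, 61, 58.6, 24.5 and 56.1 CPM in NZO/HlLtJ females and 123, 183 and 154 CPM in NZO/HlLtJ males. Every NZO/HlLtJ library was above every C57BL/6J library, and the NZO/HlLtJ males were above the NZO/HlLtJ females. The fold change was 4.92 ± 0.25, adjusted p = 4.3e-09. It was 4.70 in females (adjusted p = 7.0e-07) and 5.15 in males (adjusted p = 3.3e-07), and the interaction did not pass (0.45 ± 0.44, adjusted p = 0.71). Of the 14 tested genes of the dedifferentiation and endocrine stress list, 5 were higher and 3 lower, with a median of 0.47. In females 2 were higher and 3 lower, and in males 8 and 3, with the interaction passing at 1. The other higher genes were the gut hormone genes Cck (6.79 ± 0.79, adjusted p = 1.7e-05) and Gast (2.69 ± 0.62, adjusted p = 0.004), Serpina7 (1.05 ± 0.21, adjusted p = 0.0013) and the tetraspanin gene Cd81 (0.22 ± 0.06, adjusted p = 0.011). Cck ran from 0 to 0.0586 CPM (median 0.0160) in C57BL/6J and from 0.464 to 21.7 CPM (median 0.712) in NZO/HlLtJ, with its highest value in NZO/HlLtJ male 3, and without that library its fold change was 5.42. Gast was near the floor, from 0.0191 to 0.0938 CPM in C57BL/6J and from 0.0793 to 0.275 CPM in NZO/HlLtJ females, which overlapped. In NZO/HlLtJ males it was 0.574, 0.557 and 2.43 CPM, the last in male 3. The fold change of Gast was 2.08 without that library. The lower genes were the endocrine progenitor factor Neurog3 (-1.87 ± 0.23, adjusted p = 3.1e-05), the neuropeptide gene Npy (-2.19 ± 0.43, adjusted p = 0.0012) and the imprinted gene Nnat (-1.47 ± 0.27, adjusted p = 8.6e-04).

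Genes known to be kept off in mature beta cells were higher or did not pass, with 6 of 21 higher, 0 lower (edgeR) and a median of 0.41, beside 20.1% of all genes called higher. In females 0 passed in either direction (median -0.13) and in males 12 were higher (median 0.98). The interaction passed at 3, and at between 0 and 10 when a library was left out, with the 10 reached without NZO/HlLtJ male 1. Oat, which encodes ornithine aminotransferase, had a fold change of 0.60 ± 0.11, adjusted p = 9.9e-04, Ndrg2 one of 0.94 ± 0.18, adjusted p = 0.001 and Igfbp4, for a binding protein of growth factors, one of 0.99 ± 0.25, adjusted p = 0.0068. Without NZO/HlLtJ male 3 the count was 3. Several of them are also expressed by other cells of the pancreas.

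Among genes of the secretory granule, 6 of 24 were higher and 3 were lower, and 3 were higher without NZO/HlLtJ female 4. The share called, 37.5%, was near the 38.3% of all tested genes. Scg5, which encodes the chaperone of a prohormone convertase, ran from 453 to 609 CPM (median 565) in C57BL/6J and from 1284 to 2196 CPM (median 1419) in NZO/HlLtJ without overlap (1.49 ± 0.11, adjusted p = 1.6e-07). The granin gene Chgb had a fold change of 0.76 ± 0.23, adjusted p = 0.018 and a level of 6913 CPM in NZO/HlLtJ male 3, against 1834 to 2745 CPM in the other NZO/HlLtJ libraries. Cpe, a carboxypeptidase of prohormone processing, had a fold change of 0.38 ± 0.12, adjusted p = 0.027 and did not pass without NZO/HlLtJ female 4, C57BL/6J female 4 or NZO/HlLtJ male 3. The granule membrane protein gene Ptprn had a fold change of 0.53 ± 0.12, adjusted p = 0.0034, and Snap25, for membrane fusion, one of -0.31 ± 0.07, adjusted p = 0.0031. Vgf, which encodes a granule protein cut into peptides, was outside this list and ran from 10.5 to 22 CPM (median 14.4) in C57BL/6J and from 114 to 305 CPM (median 126) in NZO/HlLtJ without overlap (3.48 ± 0.16, adjusted p = 1.7e-09).

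Of 29 receptor and signalling genes of beta cells, 6 were higher and 8 lower, 48.3% in all. Of all tested genes, 20.1% were higher and 18.2% lower. The leptin receptor gene Lepr ran from 3.48 to 9.88 CPM (median 5.32) in C57BL/6J and from 10.4 to 17.7 CPM (median 15.4) in NZO/HlLtJ without overlap (1.26 ± 0.17, adjusted p = 5.7e-05). Socs3, an inhibitor of cytokine receptor signalling, had a fold change of 1.63 ± 0.28, adjusted p = 4.9e-04. Lower genes included those of the galanin receptor Galr1 (-1.02 ± 0.13, adjusted p = 3.6e-05), the fatty acid receptor Ffar4 (-1.03 ± 0.17, adjusted p = 3.9e-04) and the incretin receptor Gipr (-0.85 ± 0.16, adjusted p = 9.6e-04). Of 22 ion channel genes, 5 were higher and 8 lower. The sodium channel gene Scn9a ran from 63.7 to 70.9 CPM (median 67.6) in C57BL/6J and from 28.2 to 35.4 CPM (median 31.8) in NZO/HlLtJ without overlap (-1.11 ± 0.06, adjusted p = 4.6e-09), while the potassium channel genes Kcnk16 (0.72 ± 0.10, adjusted p = 5.3e-05) and Kcnj5 (1.97 ± 0.23, adjusted p = 1.7e-05) were higher.

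Genes of the unfolded protein response, which restores folding capacity in the endoplasmic reticulum, were higher in NZO/HlLtJ or did not pass. Of 25 tested, 14 were higher and 0 were lower at an adjusted p under 0.05 in the edgeR fit, with a median of 0.46 and a positive fold change in 25 of 25. Hspa5, which encodes the main chaperone of that compartment, ran from 1002 to 2074 CPM (median 1682) in C57BL/6J and from 1366 to 3965 CPM (median 2758) in NZO/HlLtJ (0.76 ± 0.21, adjusted p = 0.011). Creld2, a folding factor gene, ran from 48.3 to 107 CPM (median 62.1) in C57BL/6J and from 63.3 to 328 CPM (median 157) in NZO/HlLtJ (1.30 ± 0.24, adjusted p = 9.1e-04). Both genes overlapped between strains. Sdf2l1 (1.0 ± 0.22, adjusted p = 0.0032), Dnajb11 (0.83 ± 0.19, adjusted p = 0.0035) and Hyou1 (0.64 ± 0.20, adjusted p = 0.022), which encode chaperones or their partners, were also higher. The count was 9 without NZO/HlLtJ female 4, and Hyou1 was then among those lost. In males 15 passed and in females 0, and the interaction passed for 1 of the 25, Derl3, and for 0 in 10 of the 15 fits that left out a library. In males the count was 9 without NZO/HlLtJ male 3. In females it was 4 without NZO/HlLtJ female 3.

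The promoters of Hspa5 and Creld2 are shown because both hold the endoplasmic reticulum stress response element (the letters CCAAT and CCACG with 9 bases between them), in capitals. The 250 bases before each gene's start are printed, from RefSeq in GRCm38.p6. Both strands were searched, in windows that also held the 50 bases after the start. In Creld2 the match is on the other strand.
Hspa5, chr2:34771840-34772089, plus strand: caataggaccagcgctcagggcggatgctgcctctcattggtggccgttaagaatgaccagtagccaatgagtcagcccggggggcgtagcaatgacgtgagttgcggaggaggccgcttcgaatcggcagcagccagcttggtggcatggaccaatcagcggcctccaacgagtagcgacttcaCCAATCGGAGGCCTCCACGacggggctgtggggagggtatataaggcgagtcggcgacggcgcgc
Creld2, chr15:88819396-88819645, plus strand: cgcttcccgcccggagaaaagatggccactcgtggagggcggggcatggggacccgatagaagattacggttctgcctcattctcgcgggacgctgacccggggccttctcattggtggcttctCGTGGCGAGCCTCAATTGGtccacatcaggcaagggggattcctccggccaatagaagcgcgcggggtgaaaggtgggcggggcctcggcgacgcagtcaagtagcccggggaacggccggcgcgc
The element was in 0.119% of 32817 windows, and 0.137% of 26994 genes had a window with it. Of the 22 list genes that had a window, 9 held it, namely Calr, Canx, Creld2, Derl3, Dnajc3, Hsp90b1, Hspa5, Pdia6 and Syvn1. A match describes these letters and is no test of binding.

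In the integrated stress response list, 7 of 22 genes were higher and 0 lower (edgeR), and 11 were higher without C57BL/6J female 4. Stc2, which encodes a secreted glycoprotein, ran from 0.908 to 4.72 CPM (median 1.35) in C57BL/6J and from 11.3 to 23.4 CPM (median 15.9) in NZO/HlLtJ without overlap (3.29 ± 0.30, adjusted p = 1.9e-06). Psat1, an enzyme of serine synthesis, had a fold change of 1.40 ± 0.20, adjusted p = 1.0e-04, and the transcription factor gene Cebpb one of 1.05 ± 0.19, adjusted p = 6.4e-04.

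Genes of the respiratory chain and ATP synthase split by the genome that encodes them. Of 32 tested nuclear genes, 25 were higher in NZO/HlLtJ and 0 lower (edgeR), with a median of 0.31, and the strains did not overlap at 16. The count was 25 whichever library was left out. In females 13 were higher and in males 21, and the interaction passed at 0 (edgeR). Leaving out a library moved the female count to between 7 and 19, and the male count to 13 without NZO/HlLtJ male 3. Atp5o, a subunit gene of the ATP synthase, ran from 32.5 to 49.8 CPM (median 36.2) in C57BL/6J and from 54.4 to 100.1 CPM (median 61.7) in NZO/HlLtJ without overlap (0.84 ± 0.11, adjusted p = 5.3e-05). Sdhb, of complex II, had a fold change of 0.37 ± 0.04, adjusted p = 2.6e-05. Of the 13 protein-coding genes of mitochondrial DNA, 6 were lower and 0 higher, with a median of -0.34. The 6 were all subunits of complex I. mt-Nd2 ran from 808 to 1239.9 CPM (median 984) in C57BL/6J and from 389 to 717 CPM (median 579) in NZO/HlLtJ without overlap (-0.95 ± 0.10, adjusted p = 6.2e-06). mt-Nd1 had a fold change of -0.62 ± 0.10, adjusted p = 2.8e-04, mt-Nd4 one of -0.34 ± 0.10, adjusted p = 0.017, mt-Nd4l one of -0.49 ± 0.08, adjusted p = 3.1e-04 and mt-Nd5 one of -0.51 ± 0.11, adjusted p = 0.0033. mt-Nd3 had a fold change of -0.96 ± 0.07, adjusted p = 2.2e-07. It shares 98.1% of its 31-base words with other transcripts, mt-Nd4l 98.9% and mt-Nd4 62.8%, so the values of these 3 are uncertain. The reference used in counting is not given beyond its build. The effect of strain sequence variants on the mitochondrial values, also those of mt-Nd1, mt-Nd2 and mt-Nd5, was therefore not tested.

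**Figure D2:**
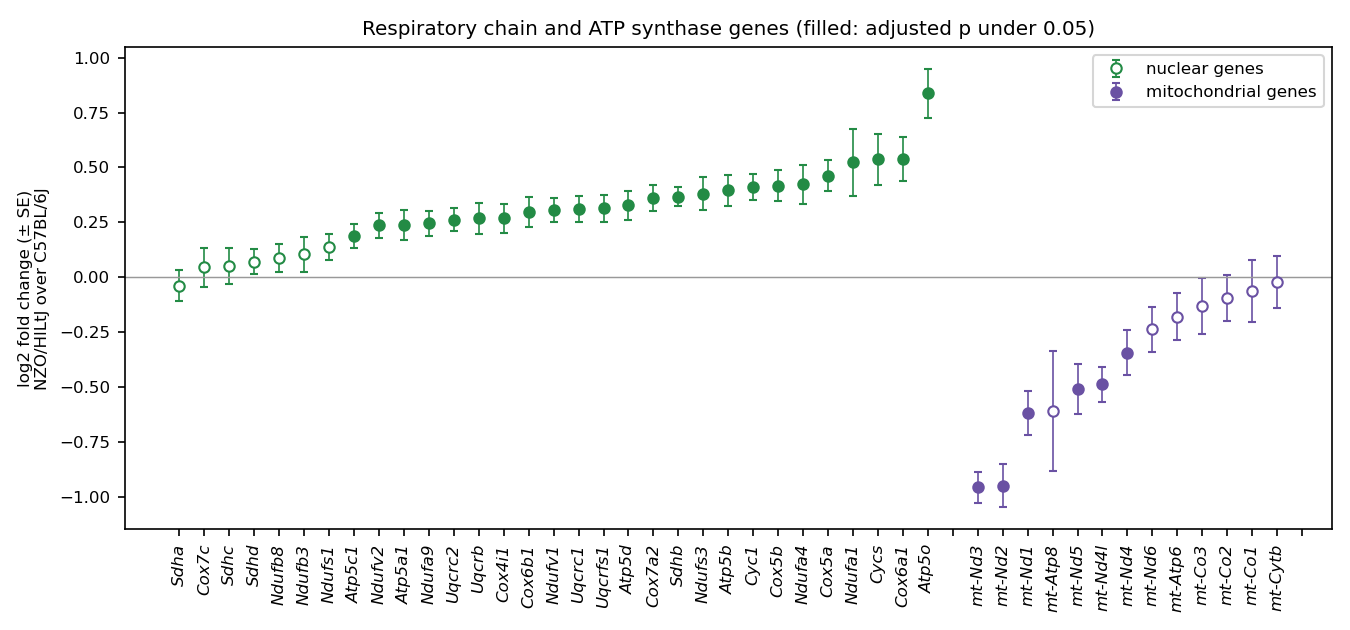
Log2 fold change of NZO/HlLtJ over C57BL/6J (y axis, ± SE) for 31 nuclear and 13 mitochondrial genes of the respiratory chain and ATP synthase, filled where the adjusted p was under 0.05. The nuclear genes drawn run from -0.04 for Sdha to 0.84 for Atp5o, and the 13 mitochondrial genes are all below 0.

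Nnt encodes a mitochondrial enzyme that makes NADPH, and C57BL/6J carries a known deletion in it. It ran from 26.5 to 36 CPM (median 30.7) in C57BL/6J and from 69.7 to 107 CPM (median 85.2) in NZO/HlLtJ without overlap (1.47 ± 0.09, adjusted p = 3.6e-08). In a fit of all 45 samples its fold change over the same C57BL/6J libraries was 1.48 in NZO/HlLtJ and 1.65 in the wild-derived strain CAST/EiJ. Of 23 redox genes, 12 were higher and 4 lower. Hmox1, which encodes haem oxygenase, had a fold change of 1.08 ± 0.13, adjusted p = 2.0e-05, and the glutathione transferase gene Gstm1 one of -1.24 ± 0.12, adjusted p = 4.0e-06. The count of lower genes was 2 without C57BL/6J male 1.

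Genes of glucose and lipid use were called at shares around that of all genes. The lists ran from 25% to 50% called in either direction, beside 38.3% of all genes (20.1% higher and 18.2% lower). Of 16 glycolytic genes 6 were higher and 2 lower, or 1 lower in 8 of the 15 fits that left out a library. Gapdh ran from 40.9 to 51.9 CPM (median 46.8) in C57BL/6J and from 95.3 to 138 CPM (median 103) in NZO/HlLtJ without overlap (1.22 ± 0.08, adjusted p = 7.2e-08). Eno2 was also higher (0.58 ± 0.08, adjusted p = 8.1e-05). In the glucose-induced list 3 of 12 were higher, among them Gpd1 (0.61 ± 0.10, adjusted p = 2.0e-04) and Pklr (0.53 ± 0.11, adjusted p = 0.0017). Of 23 genes of fatty acid oxidation 5 were higher and 3 lower, or 5 lower without NZO/HlLtJ male 3. Fabp3, a fatty acid binding protein gene, had a fold change of 1.55 ± 0.12, adjusted p = 3.3e-07, the dehydrogenase gene Acadl one of -0.82 ± 0.10, adjusted p = 2.9e-05 and Pdk4, a kinase that restrains pyruvate oxidation, one of -1.34 ± 0.22, adjusted p = 3.4e-04. In fatty acid synthesis 6 of 18 were higher, including the desaturase genes Fads1 (0.63 ± 0.06, adjusted p = 3.1e-06) and Fads2 (0.80 ± 0.12, adjusted p = 1.1e-04) and the triglyceride synthesis gene Dgat2 (0.95 ± 0.17, adjusted p = 7.9e-04). In cholesterol synthesis and efflux 3 of 24 were higher and 5 lower, and 5 were higher without NZO/HlLtJ female 3. Sc5d, a sterol desaturase gene, had a fold change of -0.41 ± 0.06, adjusted p = 1.0e-04.

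Genes of the primary cilium, the sensory projection of islet endocrine cells, were mostly lower or did not pass. Of 55 tested, 30 were lower and 3 higher, with a median of -0.23. Ift88, which encodes a transport protein that builds the cilium, ran from 34 to 41.1 CPM (median 36.9) in C57BL/6J and from 19.3 to 31 CPM (median 25.8) in NZO/HlLtJ without overlap (-0.56 ± 0.07, adjusted p = 3.8e-05). Ift122 (-0.56 ± 0.07, adjusted p = 2.1e-05) and Tulp3 (-0.65 ± 0.07, adjusted p = 1.3e-05), which bring cargo into the cilium, were lower. The count of lower genes ran from 25 to 31 when each library was left out. In females 9 were lower and in males 30, and the interaction passed at 0 (edgeR). The female count was 14 without NZO/HlLtJ male 3. Of 18 clock genes 6 were lower and 2 higher, and the lower ones included the repressor genes Nr1d1 (-0.88 ± 0.13, adjusted p = 1.1e-04) and Nr1d2 (-0.68 ± 0.16, adjusted p = 0.0045) and Per3 (-1.12 ± 0.25, adjusted p = 0.0032). The sources used here do not give the time of day of collection.

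Of 34 cell cycle genes 19 were higher and 1 lower, with a median of 0.82. In females 3 were higher (median 0.39) and in males 20 (median 1.11), and the male count was 9 without NZO/HlLtJ male 3 and 13 without C57BL/6J male 3. The interaction passed at 1 of them. E2f1, a transcription factor of the cycle, ran from 8.54 to 11.3 CPM (median 10.0) in C57BL/6J and from 18.6 to 30.1 CPM (median 22.2) in NZO/HlLtJ without overlap (1.17 ± 0.10, adjusted p = 8.9e-07). Rrm2, for nucleotide synthesis, had a fold change of 1.10 ± 0.17, adjusted p = 1.7e-04, and the inhibitor gene Cdkn1a one of 1.14 ± 0.19, adjusted p = 4.4e-04. Mki67, the marker of dividing cells, ran from 4.03 to 9.01 CPM (median 6.83) in C57BL/6J and from 5.24 to 23.6 CPM (median 11.4) in NZO/HlLtJ (0.99 ± 0.28, adjusted p = 0.012), and its highest value was in NZO/HlLtJ male 3. Without that library 10 genes were higher and 3 lower. Ccnd1 was the lower gene (-0.66 ± 0.19, adjusted p = 0.014).

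**Figure D3:**
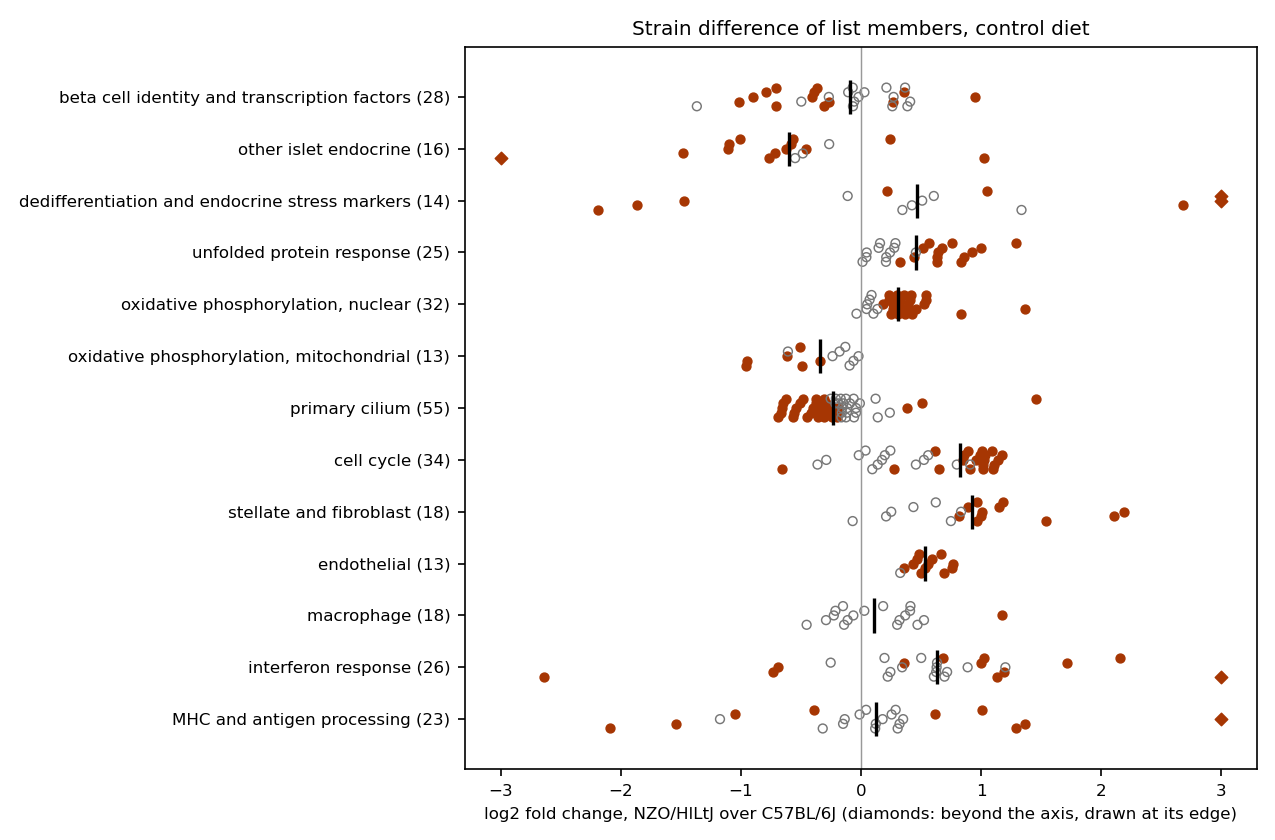
Log2 fold change of NZO/HlLtJ over C57BL/6J for each tested member of 13 gene lists (number tested in brackets), filled where the adjusted p was under 0.05, with the list median as a black line and values beyond 3 drawn as diamonds at the edge. The medians run from -0.60 for other islet endocrine genes to 0.93 for stellate and fibroblast genes.

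Markers of vessels and of the stroma were called higher in NZO/HlLtJ, with the counts by sex given beside them. Of 13 endothelial genes 12 were higher, with a median of 0.53, and the summed level ran from 625.1 to 897.2 CPM in C57BL/6J and from 1124.3 to 1381.9 CPM in NZO/HlLtJ, without overlap. Kdr, a receptor for vascular growth factor, had a fold change of 0.76 ± 0.07, adjusted p = 2.4e-06, its relative Flt1 one of 0.50 ± 0.07, adjusted p = 6.9e-05 and the adhesion gene Esam one of 0.69 ± 0.10, adjusted p = 8.2e-05. Of 18 stellate and fibroblast genes 11 were higher and 0 lower (edgeR), with a median of 0.93 and a summed level from 431.1 to 988.5 CPM in C57BL/6J and from 996.5 to 2764.1 CPM in NZO/HlLtJ. By sex, 5 endothelial genes were higher in females (median 0.26) and 13 in males (median 0.93), and the interaction passed at 5. That number ran from 0 to 7 when a library was left out, and was 0 without C57BL/6J female 1, female 3, male 3 or male 4, or NZO/HlLtJ female 2. Of the stellate and fibroblast genes 4 were higher in females (median 0.19) and 16 in males (median 1.67). The interaction passed at 0 of them (edgeR), and at 14 without NZO/HlLtJ male 1. The pericyte gene Rgs5 ran from 126 to 184 CPM (median 157) in C57BL/6J and from 362 to 671 CPM (median 431) in NZO/HlLtJ without overlap (1.54 ± 0.12, adjusted p = 2.5e-07). Pdgfrb, a growth factor receptor gene of mural cells, had a fold change of 1.18 ± 0.14, adjusted p = 2.4e-05, and Postn, which encodes a matrix protein, one of 2.20 ± 0.26, adjusted p = 1.7e-05. Of 14 duct genes 4 were higher and 2 lower, and 7 were higher without C57BL/6J female 3. In females 1 was higher and 2 lower, and in males 10 and 1. Ambp was higher (1.51 ± 0.13, adjusted p = 9.5e-07) and Tspan8 lower (-1.19 ± 0.16, adjusted p = 5.0e-05). Of 10 Schwann cell and neuron genes 3 were higher, among them Ednrb (1.04 ± 0.10, adjusted p = 3.4e-06) and Gfap (1.02 ± 0.30, adjusted p = 0.015), which did not pass without NZO/HlLtJ male 3. That count was 6 without C57BL/6J male 2. The part of these cells in the other differences was not tested.

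Immune markers passed at more genes in the fit by sex than over both sexes. Of 18 macrophage genes 1 was higher over both sexes, Fcer1g (1.17 ± 0.19, adjusted p = 3.4e-04). In females 1 was higher and 7 lower (median -0.75), and in males 9 were higher and 0 lower (median 0.90). The female count of lower genes ran from 1, without C57BL/6J female 1 or NZO/HlLtJ female 4, to 10. The male count ran from 5 without NZO/HlLtJ male 3 to 18 without NZO/HlLtJ male 1. The interaction passed at 3, from 0 to 17 when a library was left out. Of 16 lymphocyte genes, 1 was higher and 2 lower in females, and 8 were higher and 1 lower in males. Over both sexes Cd2 (2.31 ± 0.27, adjusted p = 1.9e-05) and Cd4 (2.0 ± 0.66, adjusted p = 0.027) were higher and the B cell gene Cd79a lower (-3.23 ± 0.20, adjusted p = 3.7e-08). The lymphocyte count of higher genes was 6 without C57BL/6J female 3, and 1 when C57BL/6J male 1, male 3, male 4 or female 4 was left out singly, since Cd4 then did not pass. Within the second identifier range alone, which held no NZO/HlLtJ male, Cd4 was at -0.40. Of 30 acinar genes only 6 had a positive fold change, and the median was -0.47. It ran from -0.94 to 0.04 when each library was left out. The share called was 10%, beside 38.3% of all tested genes. The 3 higher genes were Ctrc, Amy2b and Prss1. Ctrc, a protease gene, ran from 4.15 to 70.3 CPM (median 10.3) in C57BL/6J and from 325 to 1607 CPM (median 739.9) in NZO/HlLtJ. The strains did not overlap (5.65 ± 0.60, adjusted p = 6.9e-06). Amy2b and Prss1 share over 50% of their 31-base words with relatives and are uncertain. Amy2b had a fold change of 2.75 ± 0.62, adjusted p = 0.0035 and Prss1 one of 4.98 ± 1.57, adjusted p = 0.022. Prss1 reached 347 CPM in NZO/HlLtJ male 3, and its adjusted p was 0.20 without that library, 0.060 without C57BL/6J male 1 and 0.052 without C57BL/6J male 3. Within the second identifier range alone, which held no NZO/HlLtJ male, its fold change was -1.97.

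The strain difference passed at 3312 genes in females (17.6%: 8.93% higher and 8.68% lower) and at 6216 in males (33.1%: 18.7% higher and 14.4% lower), and 2530 genes passed in both, 2501 of them with the same sign. These were 76.4% of the female calls and 40.7% of the male calls. The interaction, which tests whether the strain difference differs between the sexes, passed at 318 genes (1.69%), 271 of them (1.44% of genes) with a higher NZO/HlLtJ over C57BL/6J ratio in males and 47 (0.25%) with a lower one. The female count was 2166 without C57BL/6J female 1. The interaction count was fragile. It ran from 20 without C57BL/6J male 4 to 1039 without NZO/HlLtJ male 1, and was 5 without C57BL/6J females 3 and 4, a set chosen after seeing the data.

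Interferon response genes and genes of antigen presentation made up part of those calls. Interferons are antiviral cytokines that act through STAT transcription factors and raise class I antigen presentation, in which B2m is the shared light chain. Of 26 interferon response genes, 22 were higher and 1 lower in males, against 3 higher and 3 lower in females, and the interaction passed at 15. Of 23 antigen presentation genes, 17 were higher and 2 lower in males, against 4 higher and 10 lower in females, and the interaction again passed at 15. The male count of higher interferon genes ran from 21 to 23 when each library was left out. The female count of lower antigen presentation genes was 5 without C57BL/6J female 1 and 6 without NZO/HlLtJ female 4. The interaction counts ran from 1 to 18 and from 4 to 19, were lowest without C57BL/6J male 3 or male 4 in both lists, and were 1 and 2 without C57BL/6J females 3 and 4.

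B2m was 83.4, 66.9, 65.5 and 80.6 CPM in C57BL/6J females, 50.8, 67, 47.8 and 48.4 CPM in C57BL/6J males, 112, 103, 116 and 84.1 CPM in NZO/HlLtJ females and 219.7, 252 and 283 CPM in NZO/HlLtJ males. The 3 NZO/HlLtJ males were above all other libraries. The strain difference was 0.48 in females (adjusted p = 0.038) and 2.23 in males (adjusted p = 7.6e-07), and the male minus female difference was 1.74 ± 0.22, adjusted p = 0.0082. Irgm1, an interferon-induced GTPase gene outside the list, was 19.8, 15.8, 16 and 17.4 CPM in C57BL/6J females, 17.1, 18.1, 15.4 and 15.2 CPM in C57BL/6J males, 19.8, 19.4, 17 and 18.9 CPM in NZO/HlLtJ females and 48.5, 32.9 and 49.2 CPM in NZO/HlLtJ males. Its strain difference was 0.07 in females (adjusted p = 0.70) and 1.40 in males (adjusted p = 3.9e-06) (1.32 ± 0.17, adjusted p = 0.0082 for the interaction). The related GTPase genes Igtp (2.08 ± 0.28, adjusted p = 0.0082) and Ifi47 (2.39 ± 0.32, adjusted p = 0.0082), also outside the list, were likewise highest in the 3 NZO/HlLtJ males. H2-K1, a class I heavy chain gene, was lower in NZO/HlLtJ in both sexes and less so in males (-2.62 in females (adjusted p = 1.7e-09) and -1.50 in males (adjusted p = 7.0e-07), interaction 1.12 ± 0.14, adjusted p = 0.0082). H2-Q7 (3.69 ± 0.38, adjusted p = 0.0032) and the integrin gene Itgal (3.05 ± 0.38, adjusted p = 0.0082) also passed. Lonrf2, a ubiquitin ligase gene, went the other way: it was 36.1, 36.6, 35.5 and 31 CPM in C57BL/6J females, 35.1, 36.7, 36.6 and 36.4 CPM in C57BL/6J males, 7.72, 10.3, 9.95 and 7.12 CPM in NZO/HlLtJ females and 3.23, 3.35 and 3.22 CPM in NZO/HlLtJ males, with an interaction of -1.46 ± 0.17, adjusted p = 0.0082.

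Summed macrophage markers ran from 92.9 to 103.7 CPM in NZO/HlLtJ females, from 131.5 to 403.7 CPM in NZO/HlLtJ males, from 137.2 to 171.3 CPM in C57BL/6J females and from 114.2 to 168.7 CPM in C57BL/6J males. Lymphocyte markers ran from 8.3 to 14.5 CPM in NZO/HlLtJ females and from 16.0 to 39.9 CPM in NZO/HlLtJ males. No marker of either list was at 0 in every library of a strain. In C57BL/6J, lymphocyte markers ran from 18.7 to 42.3 CPM in females and from 11.3 to 15.3 CPM in males. In males 14 of 19 immediate early genes, which respond to tissue handling, were higher, against 1 in females. The male count was 6 without NZO/HlLtJ male 3, 8 without C57BL/6J male 3 and 9 without C57BL/6J male 4. Over both sexes 6 were higher, among them Socs3 and Ier3 (1.13 ± 0.28, adjusted p = 0.0066), and Nr4a2 was lower (-0.67 ± 0.14, adjusted p = 0.0023). That count was 10 without C57BL/6J female 2, and 3 without C57BL/6J female 4, male 3 or male 4. Of the NZO/HlLtJ females, none was in the third identifier range, and of the NZO/HlLtJ males none was in the second. The part of these cells, of handling and of the ranges in the sex difference was not tested.

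The promoters of B2m and Irgm1 are shown because they hold the interferon-stimulated response element, searched on both strands as GAAA and GAAA with 2 bases between them and printed in capitals. Irgm1 has a pair of overlapping matches.
B2m, chr2:122147437-122147686, plus strand: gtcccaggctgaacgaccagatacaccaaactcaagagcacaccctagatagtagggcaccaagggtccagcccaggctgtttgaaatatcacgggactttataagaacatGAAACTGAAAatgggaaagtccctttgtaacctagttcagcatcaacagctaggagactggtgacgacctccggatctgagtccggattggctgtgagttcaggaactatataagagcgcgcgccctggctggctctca
Irgm1, chr11:48871421-48871670, minus strand: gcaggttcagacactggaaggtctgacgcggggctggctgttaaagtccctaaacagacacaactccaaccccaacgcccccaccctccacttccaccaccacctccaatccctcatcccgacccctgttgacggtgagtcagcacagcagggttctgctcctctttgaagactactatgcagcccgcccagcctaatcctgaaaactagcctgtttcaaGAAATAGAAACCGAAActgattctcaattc
These letters were in 3.43% of 32817 windows, and 3.98% of 26994 genes had a window with them. They were in the windows of 11 of the 18 interferon response genes that had one and of 3 of 17 antigen presentation genes.

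**Figure D4:**
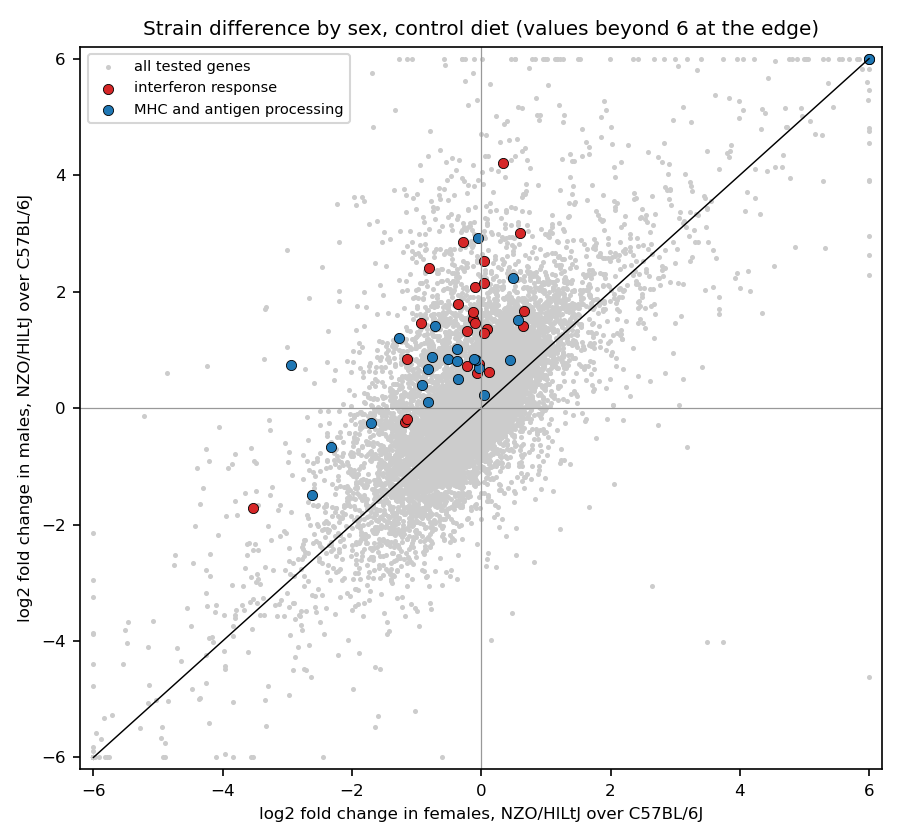
Log2 fold change of NZO/HlLtJ over C57BL/6J in females (x axis) and in males (y axis) for all 18805 tested genes, with interferon response and antigen presentation genes in colour, the line of equal change in black and values beyond 6 drawn at the edge. The coloured genes lie mostly above the line, with medians of -0.10 in females and 1.46 in males for interferon response genes.

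Over both sexes, 9 interferon response genes were higher and 3 lower. Mx1, which encodes an antiviral GTPase and carries a known defect in C57BL/6J, ran from 0.153 to 0.628 CPM (median 0.340) in C57BL/6J and from 17.5 to 77.7 CPM (median 54.6) in NZO/HlLtJ without overlap (7.0 ± 0.27, adjusted p = 2.7e-10). Its relative Mx2 was lower (-2.65 ± 0.40, adjusted p = 1.7e-04), as were Rsad2 (-0.73 ± 0.24, adjusted p = 0.025), which did not pass without C57BL/6J female 1 or NZO/HlLtJ female 3, and Ifi203 (-0.69 ± 0.16, adjusted p = 0.0041). The chemokine gene Cxcl10 had a fold change of 2.16 ± 0.63, adjusted p = 0.015, the GTPase gene Gbp2 one of 1.72 ± 0.39, adjusted p = 0.0032 and Ifi27 one of 1.13 ± 0.16, adjusted p = 1.0e-04. The interaction of strain and sex passed at each of them. Cxcl10 ran from 0.476 to 1.49 CPM in NZO/HlLtJ females and from 0.373 to 2.21 CPM in C57BL/6J females. In males it ran from 4.38 to 8.79 CPM in NZO/HlLtJ and from 0.191 to 0.335 CPM in C57BL/6J. Gbp2 ran from 5.32 to 9.85 CPM in NZO/HlLtJ females and from 17.8 to 46.8 CPM in NZO/HlLtJ males. Of the antigen presentation genes 5 were higher, namely B2m (1.29 ± 0.25, adjusted p = 0.0012), Tap2 (0.62 ± 0.07, adjusted p = 2.4e-05), Psmb8 (1.01 ± 0.15, adjusted p = 1.5e-04), Nlrc5 (1.37 ± 0.49, adjusted p = 0.039) and H2-Ea-ps, which had at most 0.0564 CPM in C57BL/6J and 9.29 to 39.2 CPM in NZO/HlLtJ. The call of Nlrc5 was lost in 8 of 15 fits that left out a library. The 4 lower were H2-K1 (-2.09 ± 0.17, adjusted p = 5.5e-07), H2-D1 (-0.40 ± 0.15, adjusted p = 0.05), whose call was lost in 12 of 15, H2-Q4 (-1.54 ± 0.25, adjusted p = 2.9e-04) and H2-Ab1 (-1.05 ± 0.24, adjusted p = 0.0038). Within the third identifier range, which held no NZO/HlLtJ female, H2-D1 was at 0.36 and H2-Ab1 at 0.22. Genes of this family differ in sequence between strains, and the reference used in counting is not given beyond its build, so the effect of strain variants on these values was not tested.

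By size alone, the largest increases among protein-coding genes whose log2 CPM averaged 1 or more were in Hba-a1, a globin gene whose value is uncertain because of its near copy, Mx1, Ctrc, the tight junction gene Cldn11 (5.20 ± 0.39, adjusted p = 2.5e-07), Aldh1a3, Itih1 (4.77 ± 0.11, adjusted p = 4.6e-12), Angptl7 (4.17 ± 0.29, adjusted p = 1.0e-07), the sulphate transporter gene Slc26a1 (3.55 ± 0.13, adjusted p = 2.3e-10), Vgf and the chemokine gene Ccl19, which is uncertain. Itih1 ran from 1.05 to 1.93 CPM (median 1.57) in C57BL/6J and from 30.0 to 56.4 CPM (median 39) in NZO/HlLtJ, without overlap. Cldn11 ran from 1.09 to 1.57 CPM (median 1.33) in C57BL/6J and from 19.6 to 229 CPM (median 31.5) in NZO/HlLtJ, and its highest value was in NZO/HlLtJ male 3, without which its fold change was 4.61. The largest decreases were in H2-Q2 (-9.61 ± 0.15, adjusted p = 1.7e-14), the folate receptor gene Folr1 (-5.27 ± 0.24, adjusted p = 1.8e-09), Tceanc2 (-4.25 ± 0.11, adjusted p = 8.8e-12), Fggy (-4.17 ± 0.13, adjusted p = 4.8e-11), the unconventional myosin gene Myo7a (-4.13 ± 0.25, adjusted p = 3.3e-08), Fxyd3 (-3.79 ± 0.31, adjusted p = 5.4e-07), Akr1c12 (-3.71 ± 0.13, adjusted p = 1.4e-10), the small GTPase gene Rab6b (-3.38 ± 0.19, adjusted p = 1.7e-08), and Hist2h2aa1 and Gm13139, both uncertain. H2-Q2, a class I gene outside the list at chr17:35342242-35346762, ran from 45.7 to 58.7 CPM (median 54) in C57BL/6J and from 0.0281 to 0.102 CPM (median 0.0668) in NZO/HlLtJ, without overlap. The near copies Hist2h2aa1 and Hist2h2aa2 went in opposite directions (-4.50 and 9.83), and their reads cannot be told apart with confidence.

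A few transcripts were at most at 3 counts in every library of one strain. Among those with a mean of at least 1 CPM, 4 were in NZO/HlLtJ and 6 in C57BL/6J. Zfp607, a zinc finger gene at chr7:27857527-27880825, had 4.74 CPM ± 0.865 (SD, n = 8) in C57BL/6J, at least 142-fold higher than the floor of 3 counts per library in NZO/HlLtJ. Sftpa1, a surfactant protein gene (1.45 CPM ± 0.539), and Gm14085 (1.35 CPM ± 0.355) were likewise seen in C57BL/6J, and Gm13225 (1.14 CPM ± 0.306) in NZO/HlLtJ. Others were Tdg-ps, Gm10259, Hist1h4m and RP23-73F23.5, all uncertain because of near copies, and Gm5345. BC018473 was seen in NZO/HlLtJ below that mean, as was Serpina3f, which ran from 0 to 0.0330 CPM (median 0.0107) in C57BL/6J and from 0.0113 to 2.81 CPM (median 0.129) in NZO/HlLtJ. Called genes with a 2-fold or larger difference were counted in windows of 2 Mb, separately for each direction. The highest shares were in a window on chromosome 4 from 146000001 to 148000000, where 10 of 20 tested genes were lower, in 1 on chromosome X from 168000001 to 170000000 (4 of 8 lower) and in 1 on chromosome 17 from 16000001 to 18000000 (4 of 9 lower). A window on chromosome 14 from 4000001 to 6000000, named after its values were seen, held 5 higher and 5 lower of 12. Of all 18805 tested genes, 1142 were called at least 2-fold lower and 1045 at least 2-fold higher. The lower genes of the chromosome 4 window include Gm13139, which is uncertain. The effect of near copies and of strain variants on the counts of these windows was not tested.

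A last list held genes proposed by crosses with NZO mice and genes known to be null in C57BL/6J. Of 12 tested, 3 were higher (Nnt, Lepr and Abcg1) and 3 lower, and 5 were higher without NZO/HlLtJ female 3. Pctp, a phosphatidylcholine transfer protein gene, ran from 8.88 to 12.5 CPM (median 10.2) in C57BL/6J and from 5.75 to 7.80 CPM (median 6.67) in NZO/HlLtJ without overlap (-0.64 ± 0.09, adjusted p = 7.6e-05). Abcg1, a sterol exporter gene, ran from 53.9 to 70.9 CPM (median 62.9) in C57BL/6J and from 80.8 to 91.7 CPM (median 85.4) in NZO/HlLtJ without overlap (0.45 ± 0.06, adjusted p = 1.1e-04). Zfp69 did not pass (0.34, adjusted p = 0.24).

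Other samples of the same strains, 7 of NZO/HlLtJ and 8 of C57BL/6J, came from mice on a high-fat diet over the same weeks. That diet is named 44% fat+fiber in the titles and held more sugar. There the strains differed at 11934 of 19251 genes (62.0%). Of 7166 control-diet calls tested there, 5924 were called with the same sign, which is 82.7% of those calls and 49.6% of the high-fat calls, and 22 with the opposite sign. Aldh1a3 had a fold change of 5.50 on that diet and Slc2a2 one of -1.65. Whether the strain difference itself depended on diet was not tested here.

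CAST/EiJ on the control diet (4 females and 3 males) was set beside NZO/HlLtJ in the fit of all 45 samples. Both differences are taken from the same C57BL/6J libraries and so are not independent. Aldh1a3 had a fold change of 2.46 in CAST/EiJ and 4.96 in NZO/HlLtJ. Mx1 had 1.05 and 7.01. B2m had -0.05 in CAST/EiJ and 1.36 in NZO/HlLtJ, whereas H2-K1 had -2.07 in both. H2-Q2 had 0.02 and -9.62. mt-Nd2 had 0.77 in CAST/EiJ against -0.91 in NZO/HlLtJ, and Gcg 0.14 against -1.10. Lonrf2 had 0.09 in CAST/EiJ and -2.70 in NZO/HlLtJ.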

How the data were processed

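Islet RNA of 45 samples was sequenced, and the 15 samples of NZO/HlLtJ and C57BL/6J on the control diet were compared. The authors deposited estimated counts per gene (expected counts), of which 80.6% of values lie within 1e-06 of a whole number. They also deposited log2 values after variance stabilisation and gene positions. GRCm38 and DESeq2 are named in the submitters' processing notes. No aligner, counter, strand setting or strain-specific reference is named there. Counts were rounded and tested with edgeR 4.0.16 in R 4.3.3 (quasi-likelihood, TMM scaling, filterByExpr with a minimum count of 10) with strain, sex and identifier range as terms. A fit of the 4 strain and sex groups with range gave the female, male and interaction values. P-values were adjusted by Benjamini-Hochberg over all tested genes, with a threshold of 0.05. Standard errors are the fold change divided by the root of F. CPM values use TMM scaling. The fits recovered 98% to 100% of genes changed 2-fold or 4-fold in simulated counts for the strain comparison. The changed genes were drawn from those above a minimum mean count. The simulation gave every gene the same spread and held no effect of sex, range or acinar share. It checks that the fit runs as meant and does not give the recovery in these data.

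Depth ran from 57203765 to 109950221 counts per library, and the depths limit only genes of low level. DESeq2 1.42.0, limma 3.58.1 on the authors' log2 values and the other alternatives are in the closing section. The members and gene lists were chosen with earlier results of these data known. Genes named were those always listed, the 3 called genes of smallest p in each list, the 10 largest changes in each direction, the 5 largest differences of mean CPM, transcripts of 1 strain, the 6 interaction genes of smallest p, and the 3 densest windows of 2 Mb with at least 8 tested genes, of 796. Irx2, Etv1, Trpm5, Gipr, Insm1, Gast, Serpina7, Cd81, Npy, Nnat, Cxcl10, Gbp2, mt-Nd4, mt-Nd4l, H2-Q4, H2-Q7, H2-D1, H2-Ab1, Psmb8, Nlrc5, Rsad2, Ifi203, Itgal, Hist2h2aa2, Derl3, Ccnd1 and the genes compared with CAST/EiJ were named after their values were seen. Of 22904 genes, 22763 matched GENCODE M21, whose transcripts gave the 31-base words. A gene that shares at least 50% of them with other genes is called uncertain. Values of some single genes are not reported here.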

Additional observations from a re-analysis of the deposited data

Results flagged for a closer look

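In groups of 4 libraries, single libraries stood apart from the other 3 in 41 of 486 values tested, by Dixon's criterion at the 95% level. Chance alone gives such a gap in about 1 in 20 groups. That rate does not hold where the other 3 libraries held no count, since any count then meets the criterion. The entries of H2-Ea-ps, Gm13225, BC018473, Tdg-ps and Sftpa1 are of this kind, as is that of Gm5345 in NZO/HlLtJ females. These entries cannot show that a library stood apart. The 41 and the counts by group below include them. The 3 NZO/HlLtJ males were too few to be tested.

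In C57BL/6J females on the control diet, 16 values had such a library. For Fxyd3, replicate 4 was at 11.2 CPM, against 7.14 to 7.80 in the others. Galr1 was at 26 CPM in replicate 4, against 31.7 to 32.2 in the others. For Kcnk16, replicate 4 was at 63 CPM, against 80.8 to 83.2 in the others. Rgs5 was at 184 CPM in replicate 1, against 150.2 to 154 in the others. For Cd4, replicate 3 was at 0.474 CPM, against 0.0991 to 0.149 in the others. Dnajb11 was at 149 CPM in replicate 3, against 104 to 108 in the others. For Dgat2, replicate 4 was at 4.16 CPM, against 2.51 to 2.62 in the others. Nnt was at 36 CPM in replicate 3, against 30.1 to 30.8 in the others. For Mx2, replicate 3 was at 1.66 CPM, against 1.28 to 1.33 in the others. H2-Ea-ps was at 0.0564 CPM in replicate 1, against 0 in the other libraries. For Pdx1, replicate 1 was at 183 CPM, against 131 to 133 in the others. Ucn3 was at 258 CPM in replicate 4, against 344 to 356 in the others. For Gm13225, replicate 1 was at 0.0113 CPM, against 0 in the other libraries. BC018473 was at 0.0113 CPM in replicate 1, against 0 in the other libraries. For Rsad2, replicate 2 was at 9.28 CPM, against 14.4 to 15.2 in the others. Psmb8 was at 12.2 CPM in replicate 1, against 9.98 to 10.2 in the others.

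In C57BL/6J males on the control diet, 11 values had such a library. For Galr1, replicate 1 was at 43.4 CPM, against 32.8 to 33.5 in the others. Lepr was at 3.48 CPM in replicate 4, against 4.32 to 4.47 in the others. For Neurog3, replicate 3 was at 2.41 CPM, against 4.77 to 5.04 in the others. Prss1 was at 0.312 CPM in replicate 2, against 0.0173 to 0.0478 in the others. For Ednrb, replicate 1 was at 14.8 CPM, against 11.4 to 11.8 in the others. Nr1d2 was at 148 CPM in replicate 1, against 88.9 to 96.4 in the others. For Tdg-ps, replicate 4 was at 0.00956 CPM, against 0 in the other libraries. BC018473 was at 0.0234 CPM in replicate 1, against 0 in the other libraries. For Gm5345, replicate 2 was at 1.48 CPM, against 1.06 to 1.13 in the others. B2m was at 67 CPM in replicate 2, against 47.8 to 50.8 in the others. For H2-Ab1, replicate 2 was at 53.5 CPM, against 38.8 to 40.3 in the others.

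In NZO/HlLtJ females on the control diet, 14 values had such a library. For the acinar share, replicate 2 was at 8.78% of counts, against 1.93 to 2.70 in the others. Ctrc was at 1607 CPM in replicate 2, against 325 to 412 in the others. For Aldh1a3, replicate 3 was at 24.5 CPM, against 56.1 to 61 in the others. Hist2h2aa1 was at 4.74 CPM in replicate 1, against 2.37 to 2.75 in the others. For Ffar4, replicate 4 was at 4.86 CPM, against 5.67 to 5.75 in the others. Hhex was at 9.80 CPM in replicate 3, against 7.84 to 8.13 in the others. For Amy2b, replicate 2 was at 403 CPM, against 77.6 to 119 in the others. Sc5d was at 15.4 CPM in replicate 3, against 18.3 to 18.8 in the others. For Sst, replicate 4 was at 2561 CPM, against 2225 to 2259 in the others. Iapp was at 17403 CPM in replicate 4, against 16033 to 16249 in the others. For Sftpa1, replicate 1 was at 0.0125 CPM, against 0 in the other libraries. Gm5345 was at 0.0250 CPM in replicate 1, against 0 in the other libraries. For Nnat, replicate 3 was at 7.39 CPM, against 10.9 to 11.3 in the others. H2-D1 was at 145 CPM in replicate 3, against 134 to 134 in the others.

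The strain difference itself differed between the sexes (male minus female, log2 scale ± SE, edgeR quasi-likelihood test of the interaction over all genes) for 21 of the genes named in the text. Ffar4 had a difference of -1.0 ± 0.22 (adjusted p = 0.042). Cd4 had a difference of 3.61 ± 0.83 (adjusted p = 0.047). Ifi27 had a difference of 1.0 ± 0.20 (adjusted p = 0.033). H2-K1 had a difference of 1.12 ± 0.14 (adjusted p = 0.0082). Serpina3f had a difference of 6.09 ± 1.36 (adjusted p = 0.042). Lonrf2 had a difference of -1.46 ± 0.17 (adjusted p = 0.0082). B2m had a difference of 1.74 ± 0.22 (adjusted p = 0.0082). Irgm1 had a difference of 1.32 ± 0.17 (adjusted p = 0.0082). Ifi47 had a difference of 2.39 ± 0.32 (adjusted p = 0.0082). Igtp had a difference of 2.08 ± 0.28 (adjusted p = 0.0082). Irx2 had a difference of -1.24 ± 0.22 (adjusted p = 0.023). Psmb8 had a difference of 0.95 ± 0.19 (adjusted p = 0.03). Gbp2 had a difference of 2.41 ± 0.43 (adjusted p = 0.023). Itgal had a difference of 3.05 ± 0.38 (adjusted p = 0.0082). Cxcl10 had a difference of 3.86 ± 0.75 (adjusted p = 0.03). H2-Q4 had a difference of 1.65 ± 0.23 (adjusted p = 0.0082). Ifi203 had a difference of 0.96 ± 0.21 (adjusted p = 0.039). H2-Q7 had a difference of 3.69 ± 0.38 (adjusted p = 0.0032). H2-D1 had a difference of 0.91 ± 0.19 (adjusted p = 0.036). H2-Ab1 had a difference of 1.45 ± 0.32 (adjusted p = 0.041). Nlrc5 had a difference of 2.97 ± 0.58 (adjusted p = 0.031). These calls rest on few libraries: without C57BL/6J male 4 the number of genes called over the whole table was 20, and without C57BL/6J females 3 and 4, the libraries of highest acinar share, it was 5.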

How the results depend on the processing

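No paired analysis was possible because the labels carry no replicate numbers. The count of 7204 genes stayed within 1.5 times under RLE scaling, no low-count filter, no range term, DESeq2, an acinar score as covariate, all 45 samples, the mean of both sexes and limma on the authors' values (7146 to 8729), leaving out each library (6267 to 7669) and leaving out the 2 libraries of highest acinar share (6567, chosen after seeing the data). It was 3010 and 966 within the first and second identifier ranges and 5281 within the third, with 2 or 3 libraries of a strain in each. The female count ran from 2166 to 3909 when a library was left out, and was 2156 without the 2 libraries of highest acinar share. The interaction count of 318 ran from 20 to 1039 when a library was left out, was 808 without the range term, 1052 with DESeq2 and 5 without the 2 libraries of highest acinar share. The cause of these moves was not tested. Of 4347 gene values under alternatives, 4110 kept direction and call, 193 lost the call, 25 gained it and 19 changed sign. Many of these genes were named for a small p or a large change in the main fit. The alternatives reused its libraries, so the agreement was partly set by that choice. Within the first range Pdx1 was at -0.072. The second range held no NZO/HlLtJ male, so its strain difference was one between females. In it Prss1 was at -1.97, Cd4 at -0.40, Igtp at -0.14 and Itgal at -1.40. The third range held no NZO/HlLtJ female, so its strain difference was one between males. There Nkx6-1 was at -0.11, Txnip at 0.69, Zfp69 at -0.079, H2-Q7 at 1.01, H2-D1 at 0.36 and H2-Ab1 at 0.22. Effects of range and of sex cannot be told apart in these fits. Nkx6-1 ran from -0.030 to 0.10 and Txnip from -0.30 to 0.14 when a library was left out. Txnip was at 0.019 with all 45 samples and 0.015 without the 2 libraries of highest acinar share. The depth limits only genes of a few counts, for which floors are given.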
